A study of Mus musculus with 74 samples.

Results

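Matrix metalloproteinases (MMPs) and the tissue inhibitors of metalloproteinases (TIMPs) were followed here in 2 tissues of mouse models of breast cancer, the primary mammary tumor (PT) and the lung metastasis (Lung met) of the same animal. The genes were chosen by name and number 10, of which 7 encode enzymes (Mmp2, Mmp3, Mmp9, Mmp11, Mmp13, Mmp14 and Mmp19) and 3 encode inhibitors (Timp1, Timp2 and Timp3), out of 22095 gene symbols in the 5 tables that hold group means. The members were chosen with earlier results of these data known. Both means were given for 9 members by the Her2 table, 10 by C3Tag, 8 by BALB, 9 by SEAGN and 10 by the table deposited under AKR. Mmp3 had no row in Her2, BALB or SEAGN, and the Mmp19 row of BALB carried no mean. Genes were matched by symbol, and 2678 rows of BALB and 2686 of SEAGN had no symbol. A gene without a row in those tables may therefore be present unnamed.

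MMPs are zinc-dependent endopeptidases that are made as inactive proenzymes and cut collagens, proteoglycans and other proteins of the extracellular matrix. TIMPs bind the active site of the mature enzymes and block it, and TIMP2 also takes part in the activation of proMMP2 on the cell surface by MMP14. In tumors of the breast much of the MMP mRNA comes from fibroblasts and leukocytes around the carcinoma cells rather than from the carcinoma cells themselves.

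RNA was sequenced in bulk from 74 samples, with 6 PT and 6 Lung met samples per model and 7 of each in C3Tag. In the Her2 and Myc models the transgene is driven by the mouse mammary tumor virus (MMTV) promoter and in C3Tag, which expresses SV40 T antigen, by the C3(1) promoter, all on the FVB background. The BALB, SEAGN and AKR groups are PyMT-F1 animals, in which an FVB male carrying MMTV-driven polyoma middle T antigen was crossed to a female of the named strain. All donors were tumor-bearing transgenic females, so no group here is free of an oncogene, and no normal lung or normal mammary gland was analysed here. The tumors of 1 animal were combined before RNA was made, and the PyMT animals were followed to endpoint. In the other models, resection is described for animals with a single lesion, which were then aged further. PT and Lung met of such an animal were thus taken at different times. The ages of the animals are not given in the sources used here.

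Each table compared Lung met with PT in 1 model, and the measurement used was the authors' mean of normalized counts in each tissue. No value of a single sample was at hand, so depth is unknown, no spread could be computed and no difference below was tested. A log2 ratio is the log2 of the Lung met mean over the PT mean, and 2-fold (a log2 ratio of 1 or -1) was the size used to count genes. The tables were normalized separately, so levels in different tables stand side by side only. In C3Tag the summed mean of all genes was much larger in PT than in Lung met. Directions and counts past 2-fold in that table therefore depend on the authors' scaling. The strain of the table deposited under AKR is unsettled, since most fold changes in it equal those listed elsewhere in the study for BL6, where both list the gene. For many PyMT-F1 samples the genotype and source labels also disagree with the sample titles, and which samples entered each mean is not given. The Myc table holds no group mean and was not analysed here.

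The labels of tissue were checked against marker genes. In Lung mets, 4 of 4 lung epithelial markers with values (Ager, Hopx, Rtkn2 and Lamp3, of 8 listed) were 2-fold or more higher than in PT in each of the 5 tables. Their summed mean ran from 33.5 to 519 in PT and from 592 to 15410 in Lung met, and the defining genes Sftpc, Sftpb, Sftpa1 and Scgb1a1 had no value. The part of lung tissue within the Lung met samples in the differences below was not tested. The mammary luminal list (Krt8, Krt18, Krt19, Epcam and Elf5) had median log2 ratios between -0.02 and 0.25, with summed means from 13179 to 97050 in PT and from 15344 to 95632 in Lung met. Krt19, named after its values were seen, was past 2-fold higher in Her2 (3.81) and BALB (1.23). It had no value in the table deposited under AKR. Most fibroblast markers, though not Pdgfra or Pdgfrb, were lower in Lung met, and neutrophil markers were higher, with the values given beside the enzymes concerned. In bulk RNA, fewer cells of a type and less RNA per cell cannot be told apart.

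The enzymes did not share a direction, and the 3 inhibitors among the members stayed within 2-fold more often. Over the 5 tables, 15 of 31 enzyme values were past 2-fold in either direction, against 3 of 15 inhibitor values. Timp4, which is not a member, was past 2-fold in C3Tag (1.35) and SEAGN (-1.50) but not in BALB (0.29), at low means. Mmp2, Mmp3 and Mmp13 had negative log2 ratios in every table that gave them, Mmp19 and Timp3 had positive ones, and Mmp9 was positive in 4 tables of 5 and negative in Her2. Of the members with values, 0 of 9 in Her2, 3 of 10 in C3Tag, 0 of 8 in BALB, 1 of 9 in SEAGN and 2 of 10 in the table deposited under AKR were 2-fold or more higher in Lung met. Among all genes the shares were 2.38%, 7.42%, 2.26%, 2.86% and 7.31% in the same order. Members 2-fold or more lower numbered 2, 2, 2, 4 and 2, beside 1.43%, 1.7%, 2.4%, 3.22% and 1.73% of all genes. The median log2 ratio of the members was -0.21 in Her2, 0.42 in C3Tag, -0.45 in BALB, -0.99 in SEAGN and 0.27 in the table deposited under AKR, whereas the median of all genes lay between -0.00 and 0.03.

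**Figure D1:**
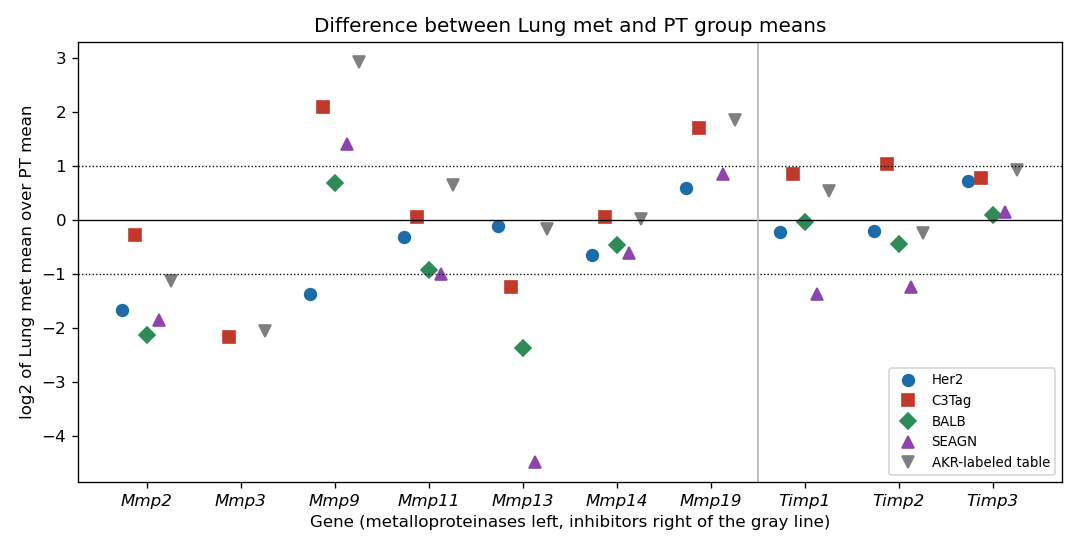
Log2 of the Lung met mean over the PT mean (vertical axis) for the 7 enzymes and 3 inhibitors (horizontal axis), 1 point per table, with dotted lines at 2-fold. Points for Mmp2, Mmp3 and Mmp13 all lie below 0 and those for Mmp19 and Timp3 all lie above 0, while Mmp13 spans from -4.48 in SEAGN to -0.11 in Her2.

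Mmp2 encodes gelatinase A, which cuts denatured collagen and basement membrane collagen and is made mainly by stromal cells. The gene lies at chr8:92827291-92853420 (GRCm38, plus strand). Its mean was 1516 in PT and 475 in Lung met in Her2, a log2 ratio of -1.67. In C3Tag the means were closer, at 1490 in PT and 1229 in Lung met (log2 ratio -0.28). The PyMT-F1 tables each showed a difference past 2-fold. In BALB the mean was 406 in PT and 92.9 in Lung met (-2.13). In SEAGN it was 562 in PT and 155 in Lung met (-1.85). In the table deposited under AKR it was 1131 in PT and 519 in Lung met (-1.13). Mmp2 was thus lower in the metastases of all 5 tables and past 2-fold in 4, with C3Tag the exception. In C3Tag the summed mean of all genes was lower in Lung met than in PT, a wider gap than in any other table. The C3Tag ratio of Mmp2 is small beside that gap, so its sign rests on the authors' scaling. The same holds for the sign of the C3Tag median of the fibroblast list (-0.34). It also holds for the side of 2-fold on which Mmp13 (-1.25), Timp1 (0.86) and Timp3 (0.79) fell in C3Tag. Outside C3Tag, between 0.394% and 1.20% of all genes in a table had a lower log2 ratio than Mmp2, against 17.8% in C3Tag.

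The fibroblast list also had its median nearest to 0 in C3Tag. Of the 10 genes of the fibroblast list, 8 were 2-fold or more lower in Lung met in Her2, 3 in C3Tag, 7 in BALB, 7 in SEAGN and 8 in the table deposited under AKR, and 0 were 2-fold or more higher in any table. The median log2 ratios of the list were -1.49, -0.34, -1.67, -2.31 and -1.41, in the same order, and its summed mean ran from 14148 to 46052 in PT and from 4632 to 38699 in Lung met. Lum, which encodes the keratan sulfate proteoglycan lumican, and Thy1 were past 2-fold lower in all 5 tables, Col1a1, Col1a2, Col3a1 and Fap in all but C3Tag, and Postn in all but SEAGN. Dcn, which encodes decorin, was past 2-fold lower in 3 tables and had a log2 ratio of 0.75 in C3Tag. The receptors on the list did not share this direction. Pdgfra had positive log2 ratios in all 5 tables, at 0.52 in Her2, 0.80 in C3Tag, 0.55 in BALB, 0.44 in SEAGN and 0.94 in the table deposited under AKR, and Pdgfrb had 0.07, 0.52, -0.00, -0.32 and 0.65, both named after their values were seen. Relative to Col1a1, which encodes the main chain of type I collagen, the Mmp2 log2 ratio was -0.34 in Her2, 0.34 in C3Tag, -0.23 in BALB, 0.96 in SEAGN and 0.28 in the table deposited under AKR. The part of fibroblast content in the Mmp2 difference was not tested. Among 11920 genes with values in all 5 tables and a mean of at least 10, the genes with the nearest pattern of log2 ratios to Mmp2 were Col6a2, Col3a1 and Oaf, at Euclidean distances of 0.659, 0.81 and 0.882 over 5 tables.

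**Figure D2:**
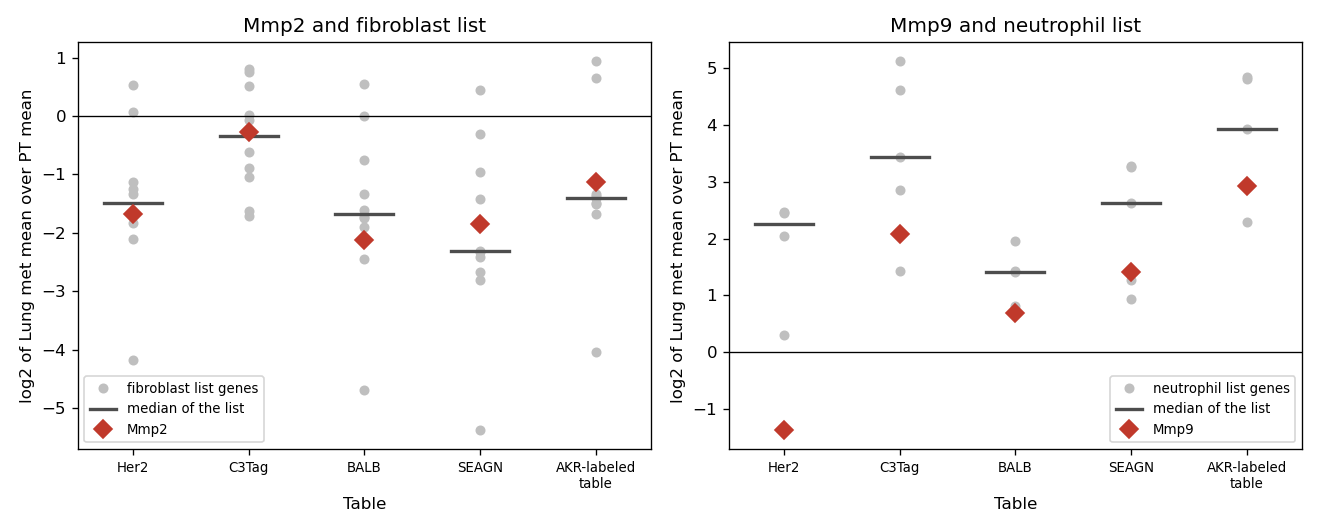
Log2 of the Lung met mean over the PT mean (vertical axis) by table (horizontal axis) for Mmp2 beside the genes of the fibroblast list and for Mmp9 beside those of the neutrophil list. Gray points are the list genes, dark bars the list medians and red diamonds the enzyme, with Mmp2 near the fibroblast median in each table and Mmp9 below the neutrophil median in each, under 0 in Her2.

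Mmp9 encodes gelatinase B, which shares substrates with the product of Mmp2 but is stored in the granules of neutrophils and is also made by macrophages and tumor cells. It lies at chr2:164940780-164955850 on the plus strand. In C3Tag its mean was 237 in PT and 1008 in Lung met, a log2 ratio of 2.09. In the table deposited under AKR it was 22.8 in PT and 172 in Lung met (2.92). In SEAGN it was 21.5 in PT and 57.0 in Lung met (1.41). These 3 tables were past 2-fold in the direction opposite to Mmp2. In BALB the difference was smaller, with a mean of 17.0 in PT and 27.3 in Lung met (0.68). Her2 went the other way, with 32.6 in PT and 12.6 in Lung met (-1.38), so that only 0.725% of the genes in that table had a lower log2 ratio. The log2 ratio of Mmp9 exceeded that of Mmp2 by 0.30 in Her2, 2.36 in C3Tag, 2.81 in BALB, 3.26 in SEAGN and 4.05 in the table deposited under AKR, a difference within a table that scaling between the tissues leaves as it is.

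Neutrophil markers were higher in the metastases in all 5 tables, Her2 included. Of the list S100a8, S100a9, Csf3r, Cxcr2 and Retnlg, 3 of 4 genes with values were 2-fold or more higher in Her2, 5 of 5 in C3Tag, 3 of 4 in BALB, 4 of 5 in SEAGN and 5 of 5 in the table deposited under AKR, and 0 were 2-fold or more lower. The list medians were 2.25, 3.44, 1.42, 2.63 and 3.93, and the summed mean ran from 138 to 677 in PT and from 355 to 8673 in Lung met. The macrophage list had median log2 ratios of -0.13, 0.61, -0.09, 0.22 and 0.72 in the same order of tables, with 2, 1, 0, 1 and 2 genes 2-fold or more higher, and summed means from 756 to 4816 in PT and from 762 to 5704 in Lung met. Mrc1, the macrophage mannose receptor, which was named after its values were seen, was the single gene of that list past 2-fold lower in a table, in Her2, where its mean was 1275 in PT and 408 in Lung met (-1.64). Its log2 ratio was 0.79 in C3Tag, -0.38 in BALB, -0.40 in SEAGN and 0.72 in the table deposited under AKR. Chil3, a chitinase-like gene of alveolar macrophages also named after its values were seen, went the other way in Her2, with 10.0 in PT and 572 in Lung met (5.83), and in SEAGN, with 6.27 and 349 (5.80). Marco had no value in any table. Siglecf, a marker of alveolar macrophages, was 2-fold or more higher in the 3 tables that gave it. The part of leukocyte content in the Mmp9 differences was not tested. The patterns nearest to Mmp9 were those of Fmo1, Mgst2 and Serpina3n, farther away than for most members, at distances of 1.40, 1.59 and 1.60.

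Mmp13 and Mmp3 lie near each other in the cluster of MMP genes on chromosome 9, at chr9:7272514-7283331 and chr9:7445822-7455975 (both plus strand). Mmp13 encodes collagenase 3, the main interstitial collagenase of rodents, and Mmp3 encodes stromelysin 1, which cuts proteoglycans and laminin and activates other proenzymes of the family. Promoter sequences from RefSeq (GRCm38.p6, the C57BL/6J reference and not the FVB, BALB or SEA genomes) were matched for 7 of the 10 members, and Mmp2, Mmp9 and Mmp19 had no entry. Windows of 150 bases, from 100 before the annotated start to 50 from the start on, are shown for both genes because both had negative log2 ratios wherever they were given, with Mmp14 and Timp3 as examples of members that differed little or were higher. Capitals mark the AP-1 letters TGANTCA and the TATA box letters TATAAA in Mmp3 and Mmp13, and the GC box letters GGGCGG, or CCGCCC for the reverse strand, in Mmp14 and Timp3.
Mmp3 chr9:7445722-7445871, plus strand: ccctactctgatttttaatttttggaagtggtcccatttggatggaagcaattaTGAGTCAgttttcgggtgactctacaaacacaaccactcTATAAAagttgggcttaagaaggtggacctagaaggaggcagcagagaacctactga
Mmp13 chr9:7272414-7272563, plus strand: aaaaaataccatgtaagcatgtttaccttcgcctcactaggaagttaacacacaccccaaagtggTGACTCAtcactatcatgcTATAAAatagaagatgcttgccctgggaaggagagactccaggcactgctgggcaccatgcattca
Mmp14 chr14:54431498-54431647, plus strand: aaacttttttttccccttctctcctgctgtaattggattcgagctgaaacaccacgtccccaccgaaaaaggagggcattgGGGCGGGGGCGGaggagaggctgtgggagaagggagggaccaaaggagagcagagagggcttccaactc
Timp3 chr10:86300312-86300461, plus strand: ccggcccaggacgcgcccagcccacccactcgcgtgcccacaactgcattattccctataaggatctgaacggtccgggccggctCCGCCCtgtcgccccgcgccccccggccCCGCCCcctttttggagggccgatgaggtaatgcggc
The AP-1 letters began 46 bases before the start of Mmp3 and 35 before that of Mmp13, and the TATA box letters 7 and 16 bases before it. Searched on both strands from 250 bases before to 50 after the start, 2 of the 7 promoters held the AP-1 letters and 2 the TATA box letters, both times Mmp3 and Mmp13, and the 5 others held the GC box letters. Of 32851 RefSeq mouse promoters of the same length, 7.81% held the AP-1 letters, 13.6% the TATA box letters and 35.7% the GC box letters. The 300 bases of Mmp3 and of Mmp13 held 1 CpG each, against 8 in Timp1, 10 in Mmp14, 19 in Mmp11, 24 in Timp3 and 25 in Timp2. These matches describe the letters of the windows and not binding.

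Mmp13 gave the lowest log2 ratio of any member. In SEAGN its mean was 172 in PT and 7.71 in Lung met, a log2 ratio of -4.48, and 0.0173% of the genes in that table had a lower one. In BALB it was 80.7 in PT and 15.5 in Lung met (-2.38). In C3Tag it was 688 in PT and 290 in Lung met (-1.25). The other tables showed little difference between the tissues. In Her2 the mean was 94.0 in PT and 87.1 in Lung met (-0.11), and in the table deposited under AKR it was 149 in PT and 133 in Lung met (-0.17). The tables therefore split, and the size of the Mmp13 difference did not follow that of Mmp2, which was past 2-fold in Her2 and in the table deposited under AKR. The patterns nearest to Mmp13 were those of Fbln2, Cd300lg and Dpysl5, at the largest distances of 1.86, 2.07 and 2.08. Mmp3 was given in 2 tables and was lower in both. Its mean was 391 in PT and 87.3 in Lung met in C3Tag (-2.16), and 127 in PT and 30.6 in Lung met in the table deposited under AKR (-2.05). In C3Tag this was a larger difference than that of Mmp2 or Mmp13.

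Mmp11 encodes stromelysin 3, which is made by fibroblasts next to carcinoma cells and is activated inside the cell by furin. Mmp11 spans chr10:75923222-75936496 on the minus strand and overlaps Chchd10 on the other strand. Its mean was 135 in PT and 110 in Lung met in Her2 (-0.30) and 147 in PT and 153 in Lung met in C3Tag (0.06). In BALB it was 32.7 in PT and 17.2 in Lung met (-0.93), and in SEAGN 49.2 in PT and 24.7 in Lung met (-0.99), both just short of 2-fold. The table deposited under AKR differed in direction, with 73.5 in PT and 115 in Lung met (0.64). Mmp11 was past 2-fold in 0 tables, and its direction was not shared between the PyMT-F1 tables. Fkbp7, Grik5 and Camk2n1 had the nearest patterns, at distances of 0.359, 0.450 and 0.453.

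Mmp14 encodes MT1-MMP, a collagenase anchored in the plasma membrane that also activates proMMP2. Mmp14, at chr14:54431612-54445364 on the plus strand, had the highest PT mean per kb of exon of the 7 enzymes in C3Tag and in the table deposited under AKR. Its mean was 945 in PT and 601 in Lung met in Her2 (-0.65), 1089 and 791 in BALB (-0.46), and 1185 and 772 in SEAGN (-0.62). In C3Tag it was 4647 in PT and 4812 in Lung met (0.05), and in the table deposited under AKR 2060 and 2081 (0.01). Mmp14 was past 2-fold in 0 tables. Its log2 ratio was nearer to 0 than that of Mmp2 in all 5.

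Mmp19 encodes a secreted MMP that cuts basement membrane proteins. Mmp19 spans chr10:128790910-128800824 on the plus strand and is overlapped by Tmem198b and Gm47093 on the other strand. Its mean was 145 in PT and 220 in Lung met in Her2 (0.60) and 184 in PT and 604 in Lung met in C3Tag (1.71). In SEAGN it was 66.2 in PT and 120 in Lung met (0.86), and in the table deposited under AKR 163 in PT and 591 in Lung met (1.86). Mmp19 was higher in the metastases of the 4 tables that gave it, past 2-fold in 2 of them. In Her2, where Mmp9 was lower, Mmp19 still exceeded 94.8% of the genes in its log2 ratio. The endothelial list had positive medians in all 5 tables, with 2, 4, 1, 1 and 5 of 6 genes 2-fold or more higher and medians of 0.67, 1.34, 0.55, 0.73 and 1.71 in Her2, C3Tag, BALB, SEAGN and the table deposited under AKR. Their summed mean ran from 899 to 3101 in PT and from 1402 to 7475 in Lung met, with Vwf, which encodes von Willebrand factor, past 2-fold in all 5 tables and Tek in 3. Emcn, named after its values were seen, was negative in BALB (-0.22) and SEAGN (-0.33). The part of endothelial or lung epithelial content in the Mmp19 differences was not tested.

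Timp1 encodes a soluble inhibitor that is induced by cytokines and forms a complex with proMMP9. The gene lies at chrX:20870166-20874735 (plus strand), inside Syn1 on the other strand. Its mean was 296 in PT and 255 in Lung met in Her2 (-0.21), and 40.4 and 39.4 in BALB (-0.04), so the tissues were close in both. In SEAGN it was lower in Lung met, at 56.2 in PT and 21.7 in Lung met (-1.37). In C3Tag it was higher, at 885 in PT and 1602 in Lung met (0.86), and in the table deposited under AKR it was 437 and 632 (0.53). The direction of Timp1 thus differed between tables. Syn1 itself had means of 23.3 in PT and 25.4 in Lung met in BALB and 26.2 and 21.2 in SEAGN, and reads of overlapping genes cannot be told apart where strand was not used in counting. Pcdhb14, Pcdhb9 and Prnd had the nearest patterns, at distances of 0.462, 0.509 and 0.560.

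Timp2 encodes the inhibitor that bridges MMP14 and proMMP2. Timp2 spans chr11:118301069-118355740 on the minus strand and overlaps Cep295nl on the same strand. Its mean was 1591 in PT and 1388 in Lung met in Her2 (-0.20), 1060 and 782 in BALB (-0.44), and 3139 and 2653 in the table deposited under AKR (-0.24). In SEAGN it was lower past 2-fold, at 1919 in PT and 810 in Lung met (-1.24). In C3Tag it was higher just past 2-fold, at 3597 in PT and 7403 in Lung met (1.04). SEAGN and C3Tag therefore stood at opposite ends for both Timp1 and Timp2. The 3 nearest patterns were those of Syn3, Stac2 and Olfml2b, at distances of 0.365, 0.444 and 0.448.

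Timp3 encodes the inhibitor that binds to the extracellular matrix and also blocks several ADAM proteases. The gene lies at chr10:86300372-86349506 (plus strand), inside Syn3 on the other strand, whose own means ran from 36.3 to 103 over the tables. Its mean was 1830 in PT and 3029 in Lung met in Her2 (0.73). In C3Tag it was 4467 in PT and 7707 in Lung met (0.79). The table deposited under AKR gave 2703 in PT and 5124 in Lung met (0.92). Smaller differences were seen in BALB, with a mean of 1128 in PT and 1206 in Lung met (0.10), and in SEAGN 1312 and 1461 (0.16). Timp3 was higher in the metastases of all 5 tables without reaching 2-fold in any. In Her2 it was the member with the highest log2 ratio and exceeded 96.0% of all genes. St8sia4, Parp3 and Fcgr4 had the nearest patterns, at distances of 0.233, 0.287 and 0.310.

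**Figure D3:**
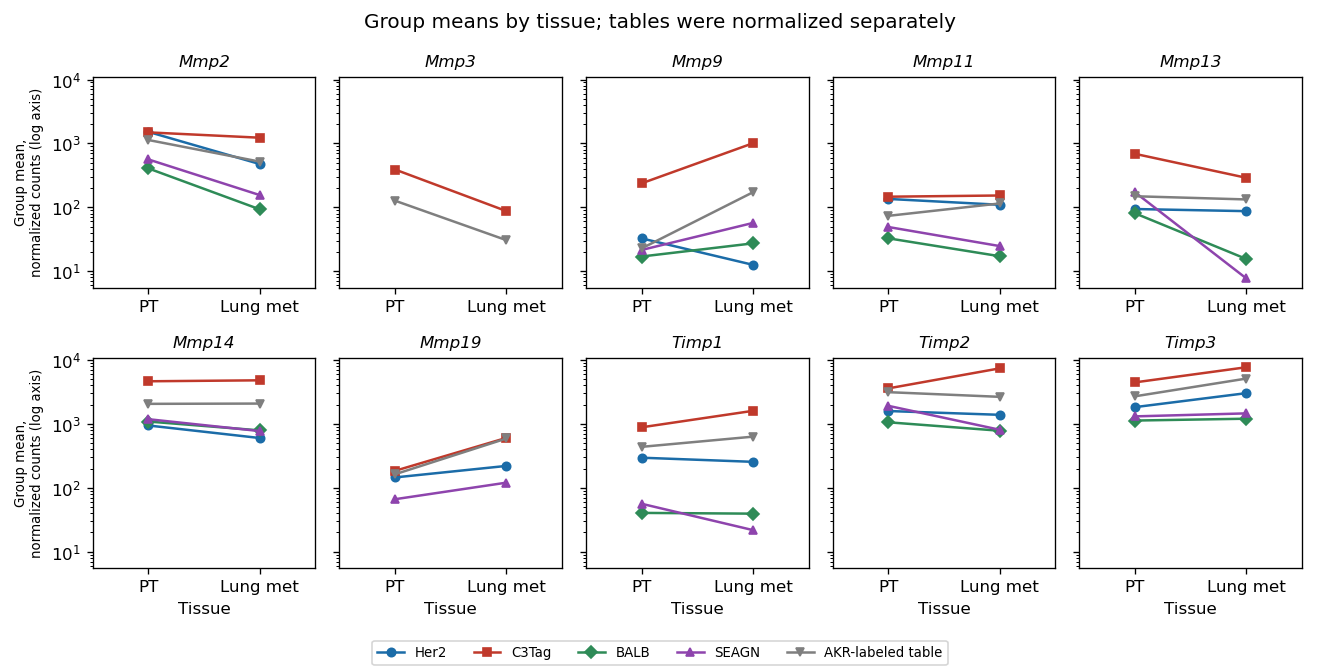
Group means of normalized counts (vertical axis, log scale) in PT and Lung met (horizontal axis) for each of the 10 genes, 1 line per table and no error bars because no spread was at hand. Lines for Mmp2, Mmp3 and Mmp13 slope down and those for Mmp19 and Timp3 slope up, while the Mmp9 line slopes down only in Her2, from 32.6 to 12.6.

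Levels of the members were compared with each other only as the mean divided by the exon length in kb, in the 3 tables whose identifiers are in the annotation. In Her2 PT the order from high to low was Mmp2 at 450, Timp2 at 408, Timp1 at 333, Timp3 at 225, Mmp14 at 159, Mmp11 at 48.7, Mmp19 at 41.1, Mmp13 at 35.2 and Mmp9 at 9.22. In C3Tag PT the inhibitors Timp1 (996) and Timp2 (923) led, ahead of Mmp14 (780), Timp3 (548), Mmp2 (442), Mmp13 (257), Mmp3 (217), Mmp9 (67.1), Mmp11 (52.8) and Mmp19 (52.2). In PT of the table deposited under AKR the order was Timp2 (806), Timp1 (493), Mmp14 (346), Mmp2 (336), Timp3 (332), Mmp3 (70.5), Mmp13 (55.8), Mmp19 (46.1), Mmp11 (26.5) and Mmp9 (6.43). Whether neighbours in these orders differ cannot be judged without a spread. In Lung met the level of Mmp9 per kb was 3.55 in Her2, 285 in C3Tag and 48.7 in the table deposited under AKR. Mmp9 stood below Mmp13 in C3Tag PT but above it in Lung met, where Mmp13 was at 108, and close to Mmp13, at 49.7, in Lung met of the table deposited under AKR.

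Summed per kb over the members alone, the 3 inhibitors exceeded the enzymes in both tissues, and by more in Lung met, but this order depended on which enzymes were summed. In Her2 the 3 TIMPs summed to 966 in PT and 1015 in Lung met, whereas the 6 enzymes with values summed to 743 in PT and 380 in Lung met. The TIMP sum over the MMP sum was thus 1.30 in PT and 2.67 in Lung met. In C3Tag the TIMPs summed to 2468 in PT and 4651 in Lung met beside 1868 and 1840 for the 7 enzymes, a ratio of 1.32 in PT and 2.53 in Lung met. In the table deposited under AKR the sums were 1630 and 2021 for the TIMPs and 886 and 827 for the MMPs, a ratio of 1.84 in PT and 2.44 in Lung met. This sum was chosen after the values of the members were seen, it weighs the most abundant genes most, and mRNA says nothing of how much enzyme was active. With every MMP and TIMP gene of the lists that had a value (14 MMPs in Her2, 15 in C3Tag and 16 in the table deposited under AKR), the ratio was 0.432 in PT and 0.580 in Lung met in Her2, below 1 in both. It was 1.01 and 1.70 in C3Tag. In the table deposited under AKR it was 1.05 in PT and 0.989 in Lung met, the opposite order, where Mmp12 alone stood at 42.0 per kb in PT and 567 in Lung met.

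**Figure D4:**
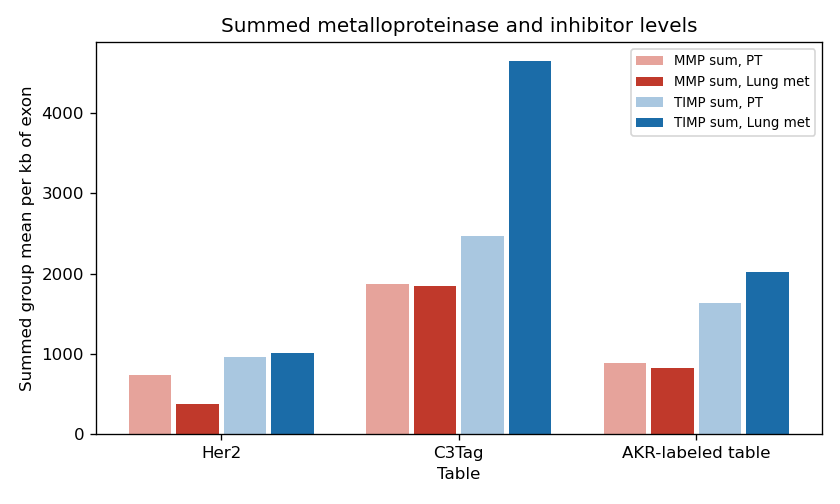
Summed group means per kb of exon (vertical axis, from 0) of the MMP members and the TIMP members in PT and Lung met, for the 3 tables with exon lengths (horizontal axis), with no error bars because no spread was at hand. For these members the TIMP bar exceeds the MMP bar in both tissues of each table, reaching 4651 against 1840 in C3Tag Lung met, an order that did not hold in Her2 or in Lung met of the table deposited under AKR once the other MMPs were added.

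Taken as log2 ratios with equal weight for each gene, the median of the MMPs was below that of the TIMPs in 4 tables. The MMP and TIMP medians were -0.48 and -0.20 in Her2, 0.05 and 0.86 in C3Tag, -0.93 and -0.04 in BALB and 0.01 and 0.53 in the table deposited under AKR. In SEAGN the order was the reverse, at -0.81 for the MMPs and -1.24 for the TIMPs, but the difference of 0.44 turned to -0.13 when means over the members replaced medians. The spread among the enzymes was wide next to these differences, from 2.27 log2 units between the lowest and highest enzyme in Her2 to 5.89 in SEAGN.

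Enzymes were also set against the inhibitor with which each is known to pair. The Mmp9 log2 ratio minus that of Timp1 was -1.16 in Her2, 1.23 in C3Tag, 0.72 in BALB, 2.78 in SEAGN and 2.39 in the table deposited under AKR. Mmp9 was thus higher relative to Timp1 in the metastases of 4 tables and lower in Her2. For Mmp2 minus Timp2 the values were -1.48, -1.32, -1.69, -0.61 and -0.88 in the same order, negative in all 5. Mmp14 minus Timp2 had no shared direction, with -0.46, -0.99, -0.02, 0.63 and 0.26, whereas Mmp14 minus Timp3 was negative in all, at -1.38, -0.74, -0.56, -0.77 and -0.91.

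Other genes of the same pathway were counted in lists, which were chosen with earlier results of these data known. Among 11 other secreted MMPs, 4, 4, 5, 4 and 4 had values in Her2, C3Tag, BALB, SEAGN and the table deposited under AKR, of which 2, 3, 2, 2 and 3 were 2-fold or more higher and 0, 0, 1, 0 and 0 lower. Mmp12 encodes macrophage elastase, which is typical of alveolar and tissue macrophages, and it was past 2-fold higher in all 5 tables. Its mean was 241 in PT and 786 in Lung met in Her2 (1.71). C3Tag gave 422 in PT and 1625 in Lung met (1.94), and BALB 68.2 and 279 (2.03). In SEAGN it was 52.7 and 263 (2.32), and in the table deposited under AKR 304 and 4101 (3.75). Mmp12 thus differed in the direction opposite to its chromosome 9 neighbours Mmp3 and Mmp13. RefSeq lists 2 starts for Mmp12, and the window of the start at which the AP-1 and TATA box letters (capitals) are found is shown because it carries the same letters as those of Mmp3 and Mmp13.
Mmp12 chr9:7347274-7347423, plus strand: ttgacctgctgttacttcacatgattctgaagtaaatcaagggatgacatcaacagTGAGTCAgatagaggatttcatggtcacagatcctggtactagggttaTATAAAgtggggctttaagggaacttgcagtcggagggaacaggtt
The AP-1 letters began 44 bases before that start. The TATA box letters lay after it, whereas in Mmp3 and Mmp13 they lay before the start. The window of the other start held neither set of letters.

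Mmp8, which encodes neutrophil collagenase, was past 2-fold higher in the 4 tables that gave it. Its means in PT and Lung met were 7.44 and 65.0 in Her2 (3.13), 21.3 and 261 in C3Tag (3.62), 12.0 and 40.1 in BALB (1.74), and 15.4 and 275 in the table deposited under AKR (4.15). In Her2 the 2 neutrophil granule enzymes therefore differed in direction, with Mmp8 higher and Mmp9 lower in Lung met, at low means for both. Mmp28, the epithelial MMP epilysin, had log2 ratios of 0.76, 1.93, 0.80, 1.03 and 1.30 in Her2, C3Tag, BALB, SEAGN and the table deposited under AKR. Mmp23 was the gene of this list with negative ratios in all 5 tables, at -0.65, -0.74, -1.49, -0.92 and -0.25. Mmp1a, Mmp1b, Mmp7, Mmp10, Mmp20 and Mmp27 had no value in any table, and Mmp21 had low means of 2.34 and 3.63 in BALB and 2.48 and 4.46 in SEAGN.

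Membrane-type MMPs other than Mmp14 were mostly within 2-fold between the tissues. Mmp24 had a value only in the table deposited under AKR. Of Mmp15, Mmp16, Mmp17, Mmp24 and Mmp25, 0, 1, 0, 0 and 0 were 2-fold or more higher in the 5 tables and 0, 0, 0, 1 and 0 lower. These were Mmp25 in C3Tag (means of 21.2 in PT and 54.6 in Lung met, log2 ratio 1.36) and Mmp16 in SEAGN (149 and 32.8, -2.19), named after their values were seen. Among Timp4, Reck, A2m and Tfpi2, 0, 2, 0, 0 and 0 were 2-fold or more higher and 0, 0, 1, 1 and 0 lower. Timp4, named after its values were seen, had means of 13.1 in PT and 33.5 in Lung met in C3Tag (1.35). In BALB they were 5.87 and 7.17 (0.29), and in SEAGN 18.0 and 6.39 (-1.50). Reck, a membrane-anchored inhibitor of MMPs, had log2 ratios between -0.17 and 0.51. A2m, which encodes the protease trap alpha-2-macroglobulin, went in both directions, with 80.7 in PT and 392.6 in Lung met in C3Tag (2.28) and 120.04 and 26.6 in BALB (-2.18).

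**Figure D5:**
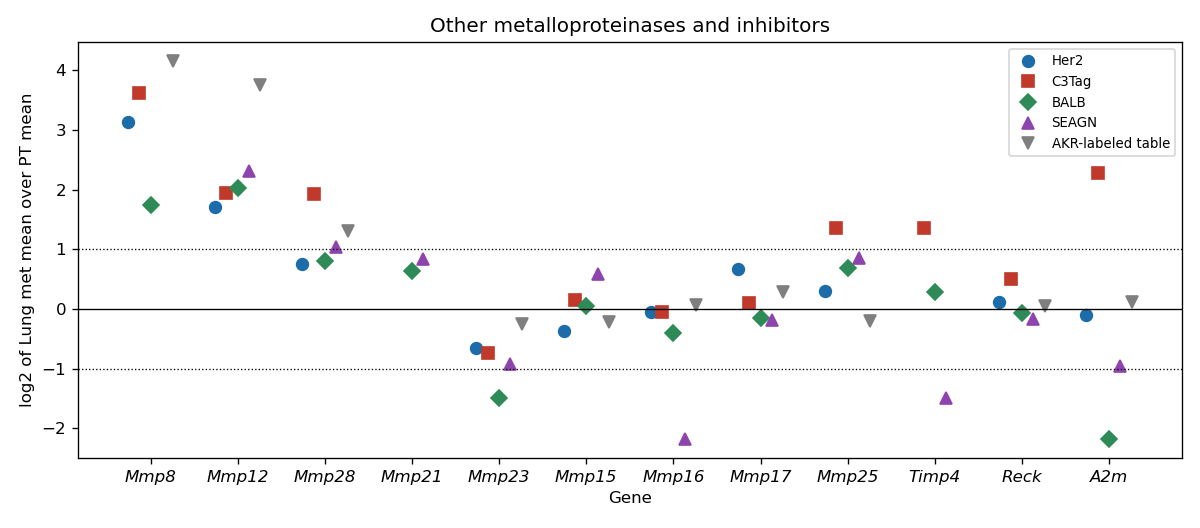
Log2 of the Lung met mean over the PT mean (vertical axis) for other MMPs and other inhibitors (horizontal axis), 1 point per table, with dotted lines at 2-fold. Mmp8 and Mmp12 lie above the upper dotted line in every table that gave them, from 1.71 to 4.15, whereas Mmp23 lies below 0 in all 5.

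Genes that act upstream of the MMPs were counted in the same way. Of 7 genes of plasminogen activation, 5 had values in each table, and 0, 1, 0, 0 and 1 were 2-fold or more higher and 0 lower. Both were Plaur, the urokinase receptor, named after its values were seen, with log2 ratios of 0.81 in Her2, 1.69 in C3Tag, 0.66 in BALB, 0.51 in SEAGN and 2.02 in the table deposited under AKR. Plau, which encodes urokinase, lay between -0.42 and 0.26. Of the proprotein convertases Furin, Pcsk5, Pcsk6 and Pcsk7, which cleave the propeptides of MMP11 and the membrane-type MMPs, 1 was past 2-fold, Pcsk6 in C3Tag (1.35). In the list of docking, clearance and induction genes (7 of 8 with values), 0, 1, 0, 1 and 1 were 2-fold or more higher and 0 lower. All of these were Cav1, which encodes the caveolar protein caveolin-1, at 1.51 in C3Tag, 1.19 in SEAGN and 1.74 in the table deposited under AKR. Of the skeletal muscle markers, Acta1 was past 2-fold lower in Lung met in 4 tables, from -5.85 to -3.25, and higher in the table deposited under AKR (1.72). The summed mean of that list ran from 15.1 to 1012 in PT and from 6.58 to 37.6 in Lung met, and its part in the differences of the members was not tested. Of the remaining marker lists, smooth muscle had 0 genes with values past 2-fold. Only 1 of its 4 genes had a value in SEAGN (0.70) and in the table deposited under AKR (0.98). The adipocyte list had 1 gene past 2-fold, Fabp4 in SEAGN (-2.73). Fabp4 had no value in BALB, and Adipoq and Plin1 had none in any table.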

How the data were processed

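Bulk RNA-seq of PT and Lung met was compared within each model. The authors aligned reads and counted them per gene in Partek Flow, normalized the counts by a method not given in the sources used here, and compared the tissues by DESeq2 in the PyMT-F1 models and by Partek's Gene Specific Analysis in the others. The build is stated differently in different places: mm9 or mm10 in the methods, and mm39 with STAR 2.7.8a and DESeq2 in the submitters' processing notes. The strand used in counting is not given in the sources used here. The signal used is the least-squares mean of normalized counts per tissue as the authors deposited it, printed with neither SD nor n, and which samples entered each mean is not given. Depth is unknown, so no interval was computed. The columns of the authors' own comparisons (p-values, false discovery rates, ratios and fold changes) were not used. The Myc table holds nothing else and was not analysed here.

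Groups were taken from sample titles (strain, animal and tissue), since the genotype and source labels of many PyMT-F1 samples conflict with their titles. For the table deposited under AKR, 272 of 279 fold changes compared equalled those that a supplementary table of the study lists for BL6, at a relative tolerance of 0.001, so its strain is unsettled and it is called by its deposited name.

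Log2 ratios of Lung met over PT were computed for all genes with both means (18208 in Her2, 19320 in C3Tag, 17270 in BALB, 17351 in SEAGN and 17829 in the table deposited under AKR), leaving out 0, 1, 93, 53 and 116 rows without a mean. Rows without a gene symbol numbered 8, 13, 2678, 2686 and 11 and were kept in the counts over all genes. No filter or pseudocount was applied. Genes past 2-fold were counted. Exon lengths and coordinates came from GENCODE M21 (GRCm38) and promoters from RefSeq (GRCm38.p6). The BALB and SEAGN tables use identifiers of a BALB/cJ annotation, so no lengths were assigned there. Likeness of pattern was the Euclidean distance over the 5 log2 ratios, and the result for Mmp14 is not reported here.

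The genes named are the 10 members and the 3 nearest genes per member. Listed genes past 2-fold in the same direction in at least 3 tables were also named, as were genes that overlap a member. Others are given for a whole list or are said to be named after their values were seen. Mmp21, Mmp23, Reck, A2m, Plau, Pcsk6 and Fabp4 also fell outside the rule and carry no such remark where they appear. The lists were other secreted MMPs, other membrane-type MMPs, other inhibitors, plasminogen activation, proprotein convertases, docking with clearance and induction, and markers of fibroblasts, lung epithelium, endothelium, macrophages, neutrophils, mammary luminal cells, smooth muscle, adipocytes and skeletal muscle. The members and lists were chosen with earlier results of these data known. Alternatives were a pseudocount of 1, a mean of at least 10 in a tissue, centring on the median of all genes, a 1.5-fold threshold and means in place of medians. Scripts were tested on simulated data and ran in Python 3.11.15 with numpy 2.4.6, pandas 2.3.3 and matplotlib 3.10.9.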

Additional observations from a re-analysis of the deposited data

How the results depend on the processing

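No paired analysis was possible because the tables hold group means only, although the titles pair PT and Lung met of the same animal, and for the same reason no sample could be left out in turn. With a 1.5-fold threshold the members higher in Lung met numbered 2 in Her2, 5 in C3Tag, 1 in BALB, 2 in SEAGN and 4 in the table deposited under AKR, and those lower 3, 2, 3, 6 and 2, beside 5.42%, 14.0%, 6.20%, 7.11% and 13.6% of all genes higher and 3.62%, 5.61%, 6.76%, 8.32% and 6.32% lower. The MMP minus TIMP difference in SEAGN was 0.44 by medians and -0.13 by means over the members, which reverses it. Centring on the median of all genes put Mmp11 in SEAGN past 2-fold (-1.01), so that 5 members were lower there, and left the other 45 values on the same side. A pseudocount of 1 left all 46 values on the same side of 2-fold. A minimum mean of 10 could change none of them, since each member with values had a mean above 10 in a tissue. Summing every MMP and TIMP gene with a value gave TIMP to MMP ratios below 1 in both tissues of Her2 (0.432 and 0.580) and turned the difference between PT and Lung met in the table deposited under AKR (1.05 and 0.989). Leaving Mmp3 out gave TIMP to MMP ratios of 1.49 in PT and 2.60 in Lung met in C3Tag and 2.00 and 2.50 in the table deposited under AKR. Both alternatives were chosen after seeing the data. Of the alternatives run, only centring could change the sign of a member, by a small shift, and it changed none. The others leave the sign as it is by construction. Scaling by the summed means of each tissue was not run. It would raise every log2 ratio of C3Tag, where the summed mean of all genes was lower in Lung met than in PT. The C3Tag sign of Mmp2 and the C3Tag counts past 2-fold therefore hold only under the authors' scaling. Without samples, no error stands behind any difference, so no order of certainty among the members can be given. Low means, such as those of Mmp9 and Mmp13 in the PyMT-F1 tables, rest on fewer reads. The same caution covers Mmp9 in Her2, at 32.6 in PT and 12.6 in Lung met, the table where Mmp9 was lower in Lung met. The summed means of all genes were larger in Her2 than in BALB or SEAGN. A mean of the same size is therefore a smaller share of the total in Her2.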
